A study of Mus musculus with 9 samples.

Results

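Lysosome and autophagy genes were followed through the activation of mouse CD4+ T cells with and without the BMP receptor BMPR1a. The set was a list of 37 named genes, picked by function but with earlier results of these data known. Of these, 36 had a row among the 25759 gene rows of the table, each a single row. Map1lc3b was not analysed here. The set holds lysosomal membrane proteins and hydrolases, the lysosomal calcium channel gene Mcoln1, the transcription factor genes Tfeb and Tfe3, and the genes of autophagosome formation.

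RNA sequencing covered 9 libraries in 3 groups of 3. The activated knockout cells came from BMPR1a/CD4cre conditional knockout mice, in which Cre recombinase is driven by the Cd4 promoter and therefore acts in all T cells that pass through the CD4+CD8+ stage. The activated WT cells came from normal B6 mice. For both groups, lymph node and spleen cells together were stimulated over 3 days by ConA at 2 ug/ml, a lectin that drives T cells to divide, and LPS at 10 ng/ml, then sorted as CD4+CD44+CD62L-Foxp3GFP-. Naive WT cells received no stimulation and were sorted directly from lymph node and spleen as CD4+CD44-CD62+Foxp3GFP-. All mice were C57BL/6, aged 8 to 12 weeks, and carried a Foxp3GFP reporter transgene. Since naive and activated cells also differ in culture and in the sorted phenotype, stimulation cannot be told apart from these. Whether the replicates are separate mice or cultures is not in the labels, so p-values reflect library-to-library spread alone, which can be technical.

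Lysosomes are acidic organelles in which hydrolases break down proteins, lipids and glycans. Autophagy delivers cytoplasm to them in double-membrane vesicles. The ULK kinases start the process, the Beclin 1 lipid kinase complex and WIPI proteins mark the forming membrane, and ATG7, ATG3 and the ATG12-ATG5-ATG16L1 complex attach Atg8-like proteins (the LC3 and GABARAP families) to its lipid. TFEB and TFE3 bind the E-box CACGTG in the promoters of many lysosomal genes and are held in the cytoplasm when mTORC1 is active. In T cells, autophagy is known to sustain survival and memory, and lysosomal proteins also serve secretory granules.

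The E-box is shown because these factors are in the set. RefSeq promoters (GRCm38.p6, 250 bases before to 50 after the annotated start) were at hand for 29 of the 36 genes. CACGTG, which reads the same on both strands, stood in the promoters of 9 of them (31%) and in those of 8.09% of 27025 annotated genes. Starts here are those of RefSeq. By the GENCODE gene positions, the sites printed for Ctsa, Ctsd, Ctsl, Mcoln1 and Atg7 lie inside the gene. Those of Lamp1, Gaa, Atg3 and Atg5 lie before it. The following stretches hold the CACGTG (capitals) nearest before the RefSeq start, except that for Lamp1 all 4 copies are shown, at -61, -45, -28 and -15 from the start.
Lamp1, chr8:13159088-13159160, plus strand: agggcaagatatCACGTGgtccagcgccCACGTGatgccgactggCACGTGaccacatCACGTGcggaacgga
Mcoln1, chr8:3500462-3500491, plus strand: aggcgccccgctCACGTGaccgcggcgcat
Ctsa, chr2:164833749-164833772, plus strand: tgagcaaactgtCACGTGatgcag
Ctsd, chr7:142387908-142387937, minus strand: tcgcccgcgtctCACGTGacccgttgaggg
Ctsl, chr13:64370739-64370768, minus strand: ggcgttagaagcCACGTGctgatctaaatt
Gaa, chr11:119267811-119267840, plus strand: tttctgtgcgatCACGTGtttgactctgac
Atg3, chr16:45158746-45158775, plus strand: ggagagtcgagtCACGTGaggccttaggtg
Atg5, chr10:44268313-44268338, plus strand: cggagcgcttgcCACGTGgtcttggt
Atg7, chr6:114670952-114670981, plus strand: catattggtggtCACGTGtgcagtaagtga

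Gabarapl1 and Npc2, the genes of the set with the largest increases on activation on the log2(FPKM + 1) scale used here, had no CACGTG in these windows. The forkhead motif TGTTTAC was searched on both strands because FOXO factors are also known regulators of autophagy genes. This exact sequence was in none of the promoters of the set that were searched, and in those of 4.05% of all genes. Variants of it were not searched, so a forkhead site of another spelling could be present. A match or its lack describes letters only. The bases before the start of Gabarapl1 and Npc2, all in lower case since neither exact sequence is present, are given next.
Gabarapl1, chr6:129532942-129533159, plus strand: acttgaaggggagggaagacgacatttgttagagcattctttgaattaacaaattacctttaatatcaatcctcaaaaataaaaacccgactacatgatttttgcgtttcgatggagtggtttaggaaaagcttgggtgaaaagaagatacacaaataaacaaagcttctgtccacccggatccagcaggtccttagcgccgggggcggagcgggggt
Npc2, chr12:84773153-84773362, minus strand: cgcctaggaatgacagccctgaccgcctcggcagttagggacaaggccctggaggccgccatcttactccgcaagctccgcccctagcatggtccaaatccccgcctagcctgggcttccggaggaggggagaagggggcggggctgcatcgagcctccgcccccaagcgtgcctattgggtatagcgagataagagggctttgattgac

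Values are FPKM, that is, fragment numbers scaled to transcript length and library size. Levels can thus be compared between genes, while the number of reads behind each value is unknown. Between 12922 and 13395 genes reached 1 FPKM in a library. The FPKM of all rows summed to 3.45e+06 to 5.73e+06 in naive, 1.03e+07 to 1.31e+07 in activated WT and 6.96e+06 to 1.05e+07 in knockout libraries. A single row held 11.2% to 48.6% of a library's sum. Over protein-coding genes the sums were closer, at 533142 to 595891. Bmpr1a itself was at 0.957, 1.93 and 1.20 FPKM in the knockout libraries, against 2.16, 2.92 and 1.40 FPKM in activated WT libraries. Naive libraries had 0.460, 0.311 and 0.336 FPKM. The activated groups overlapped (log2 fold change -0.41, limma adjusted p = 0.261), and a gene-level value also counts exons outside a deleted part, so it does not settle the label. T cell markers were high throughout: the summed FPKM of 9 such genes lay between 3399.5 and 3904.1 in all libraries. Marker transcripts of other cell types were also measured, although the CD4+ sort should remove such cells. Summed over 16 genes, myeloid markers stood at 36.4 to 50.1 FPKM in knockout, 43.0 to 51.4 in activated WT, and 103, 914 and 219 in naive libraries 1, 2 and 3, so that naive replicate 2 stood apart. The 11 B cell markers summed to 513 to 807, 541 to 631, and 247, 131 and 1055 FPKM in the same order. Cd8a and Cd8b1 together were at 220 to 279, 147 to 230 and 9.48 to 41.4 FPKM, and the 5 erythroid markers at 0.965 to 1.72, 0.816 to 1.02 and 63.5 to 84.1.

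The set was expressed in every group, and its levels spanned a wide range. Mean FPKM per gene ran from 0.886 (Wipi1) to 242 (Npc2) in knockout cells, from 1.18 (Wipi1) to 331 (Npc2) in activated WT cells, and from 0.183 (Wipi1) to 196 (Psap) in naive cells. Its median gene was at 23.1 FPKM in knockout, 22.1 in activated WT and 19.55 in naive cells. In activated WT cells Npc2, Psap, Ctsd, Ctsa and Gabarap had means above 100 FPKM, and in naive cells Psap, Ctsd, Ctss, Npc2 and Gabarap did. The summed FPKM of the set was 1705.8 to 1940.9 in knockout, 1843.9 to 2122.6 in activated WT and 1466.6 to 1571.5 in naive libraries. Both activated groups thus lay above all naive libraries and overlapped each other. The plot of levels by library shows the 36 genes.

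**Figure D1:**
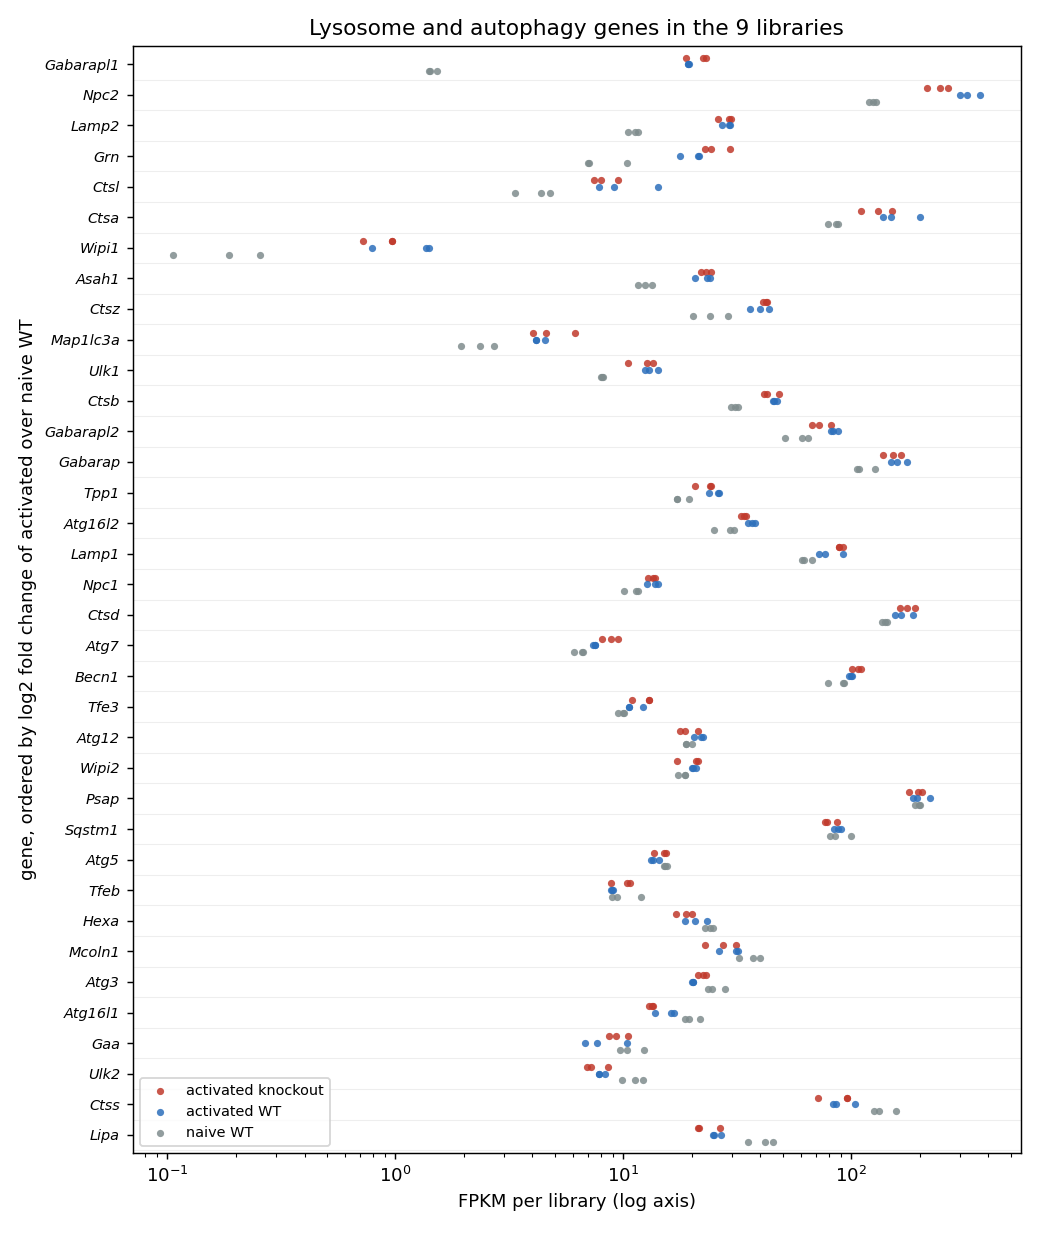
FPKM of the 36 lysosome and autophagy genes (log axis) in each library, with 3 points per group and the genes ordered by their log2 fold change between activated and naive WT cells. Gabarapl1 lies at 18.9 to 23.1 FPKM in the activated libraries and at 1.41 to 1.52 in the naive ones, while most other genes shift by much less.

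Activated and naive WT cells were compared first, to ask which of these transcripts differed after the 3 days of stimulation. Of the 36 genes, 19 rose (52.8%), 5 fell (13.9%) and 12 did not pass the test. A gene was called at a limma adjusted p under 0.05, with adjustment over all 15126 genes tested. Among all these genes 26.2% were called higher and 25.8% lower, 52% in all, against 66.7% of the set. An unadjusted p under 0.05 was reached by 27 of the 36 genes and by 58% of all genes. The median log2 fold change, on the scale of log2(FPKM + 1), was 0.27 for the set and -0.01 for all genes tested. Most changes were modest. Only Gabarapl1, Npc2, Lamp2, Grn, Ctsl and Wipi1 differed at least 2-fold between group means, and 11 of the 24 called genes differed by less than 1.5-fold. Activated and naive libraries did not overlap for 31 of the 36 genes (86.1%), against 59.4% of all genes. The 2 CD8 T cell markers were called higher in the same comparison and the 4 tested erythroid markers lower. Of 15 tested myeloid markers, 9 were called lower and none higher, with 3 fold changes above 0 and 12 below. None of 11 B cell markers was called, with 9 fold changes above 0 and 2 below. The part of such cells in the results was not tested. In bulk RNA, fewer cells of a type and less RNA per cell cannot be told apart.

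**Figure D2:**
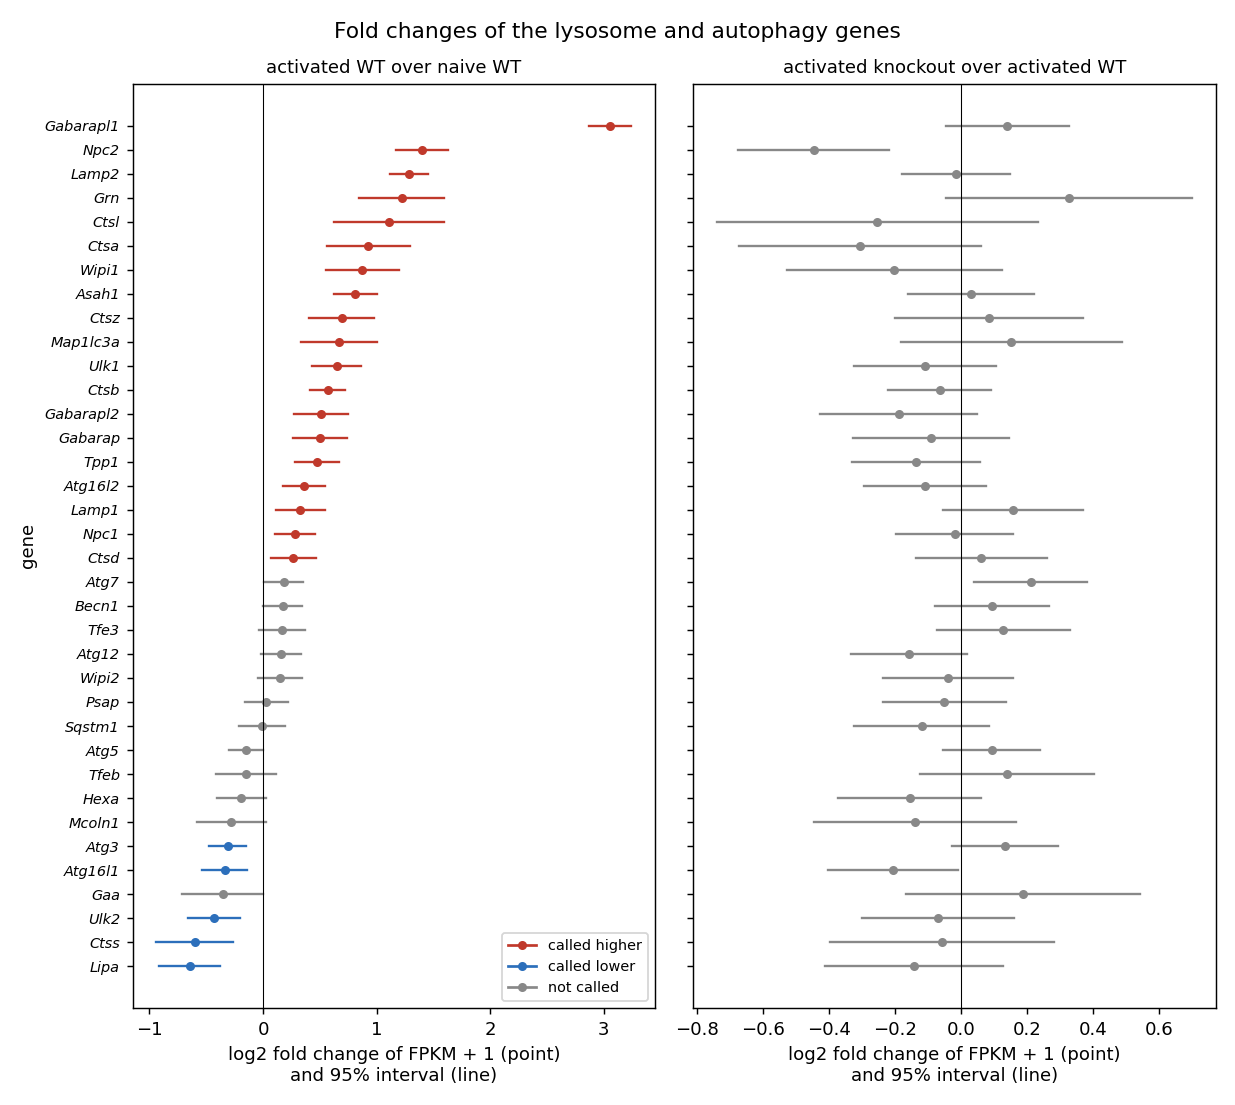
Log2 fold change of each gene (point) with its 95% interval from limma (line), for activated over naive WT on the left and activated knockout over activated WT on the right, with called genes in colour. On the left 19 genes are called higher and 5 lower. On the right no gene is called, and every interval lies between -0.74 and 0.70.

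Among genes of the lysosomal membrane and of lysosomal cholesterol export, Npc2, Lamp2, Lamp1 and Npc1 rose. Npc2 encodes the soluble protein that carries cholesterol inside the lysosome. It was at 301, 323 and 368 FPKM in the activated WT libraries, against 125, 119 and 128 in naive ones (log2 fold change 1.40, SE 0.0993, limma adjusted p = 2.96e-05). Every activated library thus lay more than 2-fold above every naive library. Npc1, the membrane transporter that takes cholesterol over from NPC2, moved far less, with means of 13.6 ± 0.823 FPKM in activated WT and 11.04 ± 0.878 in naive cells (SD, n = 3 each; log2 fold change 0.28, limma adjusted p = 0.0166). Lamp2 encodes a membrane glycoprotein needed for the fusion of autophagosomes with lysosomes. Its values were 27.1, 29.4 and 29.2 FPKM in activated WT and 10.5, 11.6 and 11.3 in naive libraries (log2 fold change 1.29, limma adjusted p = 1.14e-05). Lamp1, the related glycoprotein that marks degranulation at the cell surface, was at 72.1, 77.1 and 91.9 FPKM in activated WT and 60.9, 62.2 and 67.3 in naive libraries (log2 fold change 0.33, limma adjusted p = 0.0174). The groups did not overlap for Lamp1, but its activated libraries spread more widely than those of Lamp2. The call of Lamp1 was lost without naive replicate 1 (adjusted p = 0.0591) and with quantile normalization (0.068), and that of Npc1 without activated WT replicate 1 (0.0583) or 2 (0.0545). Over all 17 alternatives the limma adjusted p ran from 0.00177 to 0.068 for Lamp1 and from 0.00446 to 0.0583 for Npc1. Npc1 overlaps Rmc1 on the opposite strand, which averaged 29.7 FPKM in activated WT cells and 43.01 in naive cells, and the sources used here do not give strand use.

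The 6 cathepsin genes of the set moved in different directions. Ctsa, Ctsl, Ctsz, Ctsb and Ctsd rose and Ctss fell. Ctsa encodes a serine carboxypeptidase that also protects other lysosomal enzymes, and was at 139, 149 and 200.5 FPKM in activated WT, against 87.1, 79.4 and 85.4 in naive libraries (log2 fold change 0.93, limma adjusted p = 0.00184). The cysteine protease gene Ctsl had 7.79, 14.3 and 9.08 FPKM in activated WT and 4.37, 3.34 and 4.79 in naive libraries (log2 fold change 1.11, limma adjusted p = 0.00306). Activated WT replicate 2 was the highest of these, and without it the log2 fold change was 0.88, its lowest among the alternatives. Ctsz, a carboxypeptidase gene, stood at 39.7, 35.8 and 43.4 FPKM in activated WT and 20.3, 23.9 and 28.8 in naive libraries (log2 fold change 0.69, limma adjusted p = 0.00223). Ctsb was even across libraries, at 47.1, 45.6 and 45.7 FPKM in activated WT and 29.8, 30.8 and 31.8 in naive ones (log2 fold change 0.57, limma adjusted p = 0.000318). Ctsd, the major aspartic protease, averaged 169 ± 15.9 FPKM in activated WT and 140 ± 3.998 in naive cells (SD, n = 3 each; log2 fold change 0.27, limma adjusted p = 0.032). This small change lost its call under 8 of 17 alternatives, 6 of them the omission of a single library (naive replicate 1, 2 or 3, activated WT replicate 2 or 3, or knockout replicate 3), with adjusted p between 0.00392 and 0.233 over all 17. Ctsa and Ctsb overlap genes of the opposite strand that averaged 8.92 FPKM in activated WT and 1.21 in naive cells (Pltp, beside Ctsa) and 16.7 and 7.48 FPKM (Fdft1, beside Ctsb), and Ctsd and Ctsl share sequence with annotated gene models not analysed here, so reads may be split or shared between them.

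Ctss encodes cathepsin S, known for trimming the invariant chain of MHC class II in antigen-presenting cells. It had 85.8, 83.3 and 104 FPKM in activated WT libraries, against 126, 133 and 157 in naive ones (log2 fold change -0.60, limma adjusted p = 0.00987). The shares within the 6 cathepsin genes of the set shifted with it. Ctss made up 17.5% ± 0.630 of their summed FPKM in activated WT and 32.7% ± 1.99 in naive cells, and Ctsa 31.1% ± 2.56 and 19.9% ± 1.42 (SD, n = 3 each). Cathepsin genes measured outside the set, Ctsc, Ctsh and Ctso, are not in these sums. Of them Ctsc averaged 51.4 FPKM in activated WT and 33.1 in naive cells. Lipa, the lysosomal acid lipase gene, fell as well, to 25.1, 24.7 and 27.0 FPKM in activated WT, against 45.4, 41.8 and 35.2 in naive libraries (log2 fold change -0.65, limma adjusted p = 0.00238). Both transcripts are known to be abundant in myeloid cells, and 9 of 15 tested myeloid markers fell in the same comparison and none rose. S100a8 and S100a9 were listed at 0 in activated WT replicate 3 and Clec7a in replicate 2. The sum of all 16 myeloid markers was nevertheless highest in replicate 3, at 43.0, 45.2 and 51.4 FPKM in activated WT replicates 1, 2 and 3. Among naive libraries, myeloid marker RNA was highest in replicate 2, and B cell marker RNA and Ctss were highest in replicate 3 and Lipa in replicate 1. With any 1 library left out, the fold changes were -0.70 to -0.51 for Ctss and -0.75 to -0.57 for Lipa. None of 11 B cell markers was called by limma, with 1 at an unadjusted p under 0.05. The part of other cells in these decreases was not tested.

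Of the other hydrolase and cofactor genes, Grn, Asah1 and Tpp1 rose. Grn encodes progranulin, a secreted and lysosomal precursor protein. It was at 21.5, 17.7 and 21.2 FPKM in activated WT and 7.09, 7.004 and 10.4 in naive libraries (log2 fold change 1.22, limma adjusted p = 0.000533). The acid ceramidase gene Asah1 was at 24.1, 23.3 and 20.6 FPKM in activated WT, against 11.6, 12.5 and 13.4 in naive libraries (log2 fold change 0.81, limma adjusted p = 0.000147). Tpp1, a tripeptidyl peptidase gene, averaged 25.4 ± 1.296 FPKM in activated WT and 17.99 ± 1.32 in naive cells (log2 fold change 0.48, limma adjusted p = 0.00218). Psap, the precursor of the saposins that help to degrade sphingolipids, was more abundant than Ctsd and was not called, at 201 ± 17.7 FPKM in activated WT and 196 ± 5.81 in naive cells (SD, n = 3 each; log2 fold change 0.03, 95% interval -0.16 to 0.22). Hexa, a subunit gene of beta-hexosaminidase (log2 fold change -0.19), and Gaa, the acid alpha-glucosidase gene (-0.35), overlapped between the groups and were not called (limma adjusted p = 0.124 and 0.0858). In all, 12 of the 18 lysosomal genes rose, 2 fell and 4 did not pass. Of all genes tested, 26.2% were called higher and 25.8% lower.

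None of the regulators was called. Tfeb was at 9.05, 8.81 and 8.92 FPKM in activated WT libraries and 9.42, 8.94 and 12.0 in naive ones, which overlapped (log2 fold change -0.15, limma adjusted p = 0.291). Tfe3 was at 10.7, 10.7 and 12.3 FPKM in activated WT and 10.0, 10.1 and 9.45 in naive libraries (log2 fold change 0.17, limma adjusted p = 0.149), and the groups did not overlap. Mcoln1 encodes the calcium channel TRPML1, known to act upstream of TFEB. It was at 26.3, 31.4 and 31.8 FPKM in activated WT and 39.8, 32.1 and 37.3 in naive libraries (log2 fold change -0.28, limma adjusted p = 0.112; 0.0224 to 0.301 over the alternatives, under 0.05 with array quality weights), and the groups did not overlap. Of the 9 genes with CACGTG in their promoter window, Lamp1, Ctsa, Ctsd and Ctsl rose, Atg3 fell, and Mcoln1, Gaa, Atg5 and Atg7 did not pass. Called in either direction were 66.7% of the set and 52% of all genes tested. The calls of Lamp1 and Ctsd were lost under some alternatives. Whether the sequence bears on these calls was not tested.

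In the Atg8 family, the 4 measured genes rose, Gabarapl1 far more than the others. GABARAP-like proteins and LC3 are the small ubiquitin-like proteins that are tied to the autophagosome membrane and recruit cargo. Gabarapl1 (ENSMUSG00000030161, chromosome 6, 129533160 to 129542346, plus strand) was at 19.5, 19.2 and 19.3 FPKM in activated WT libraries, against 1.41, 1.52 and 1.42 in naive ones. Within each group the libraries were nearly equal, and the means differed 13.3-fold (log2 fold change 3.05, SE 0.0808, limma adjusted p = 7.85e-07). By unadjusted p it stood at rank 7 of the 15126 genes tested, and by log2 fold change at rank 211. Gabarap, the most abundant of the family, had 150, 159 and 176 FPKM in activated WT and 109, 106 and 127 in naive libraries (log2 fold change 0.50, limma adjusted p = 0.00418). Gabarapl2 had 82.9, 87.2 and 81.5 FPKM in activated WT and 51.3, 64.5 and 60.97 in naive libraries (log2 fold change 0.51, limma adjusted p = 0.00415). The LC3 gene Map1lc3a was low, at 4.14, 4.54 and 4.12 FPKM in activated WT and 1.95, 2.36 and 2.71 in naive libraries (log2 fold change 0.66, limma adjusted p = 0.00584). No group overlapped with the other for any of the 4 genes. Gabarapl1 thereby made up 7.2% ± 0.366 of the summed FPKM of these 4 genes in activated WT and 0.825% ± 0.0757 in naive cells (SD, n = 3 each). Gabarapl2 has 3 annotated copies that match 349 to 352 bases of its transcript at 96.6% to 99.4% identity, so its value is uncertain. The gene that overlaps Gabarapl1 on the opposite strand averaged 0.0554 FPKM in activated WT cells and was listed at 0 in the naive libraries.

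**Figure D3:**
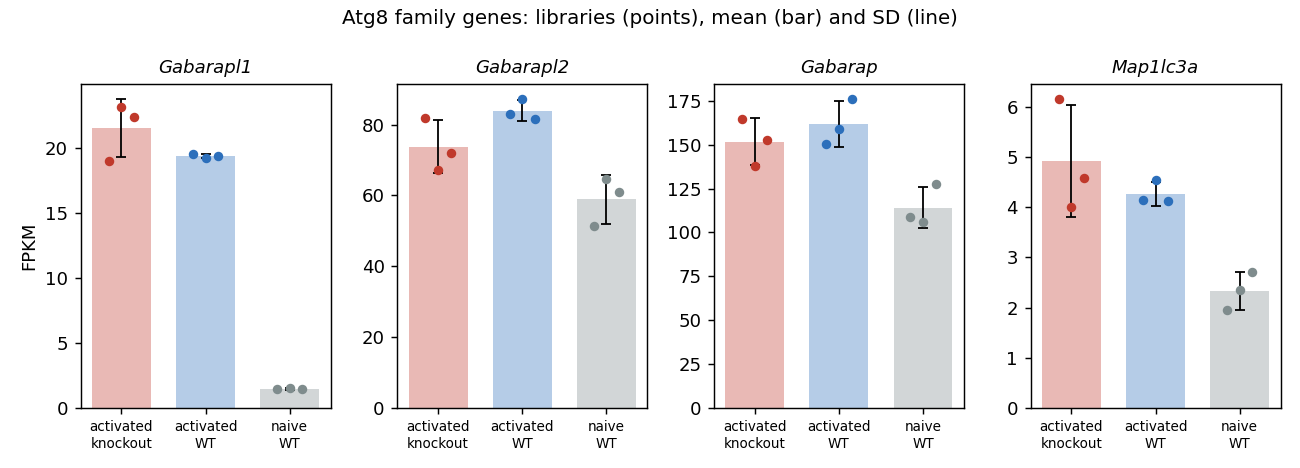
FPKM of the 4 measured Atg8 family genes in each library (points), with group means (bars) and SD (lines, n = 3), on linear axes that differ between panels. Gabarapl1 averages 21.5 FPKM in activated knockout, 19.3 in activated WT and 1.45 in naive cells, and the other 3 genes differ by less than 2-fold between activated WT and naive cells.

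The initiation kinases went opposite ways. Ulk1 rose, with 13.03, 14.1 and 12.5 FPKM in activated WT and 8.17, 7.95 and 8.10 in naive libraries (log2 fold change 0.65, limma adjusted p = 0.000814). Its relative Ulk2 fell, to 7.85, 7.79 and 8.31 FPKM in activated WT, against 12.3, 11.3 and 9.93 in naive libraries (log2 fold change -0.43, limma adjusted p = 0.00752). Ulk1 was thus the more abundant of the pair in each activated WT library and Ulk2 in each naive library. The Beclin 1 gene Becn1 was among the more abundant genes of the set and was not called, at 99.4 ± 1.58 FPKM in activated WT and 88.3 ± 7.85 in naive cells (SD, n = 3 each; log2 fold change 0.17, limma adjusted p = 0.0871). Of the WIPI genes, which bind the lipid made by the Beclin 1 complex, Wipi1 was low and rose, with a mean of 1.18 ± 0.343 FPKM in activated WT and 0.183 ± 0.0747 in naive cells (log2 fold change 0.87, limma adjusted p = 0.00138). At this level the fold change depends on the pseudocount, and was 2.18 with 0.1 in place of 1. Wipi2 was at 20.4 ± 0.509 and 18.3 ± 0.764 FPKM in the same order and was not called (limma adjusted p = 0.177).

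The conjugation machinery showed small changes in both directions, and the summed FPKM of its 6 genes was level at 115 ± 3.32 in activated WT and 115 ± 6.32 in naive cells (SD, n = 3 each). Atg16l1 encodes the subunit that places the ATG12-ATG5 conjugate on the membrane. It fell to 13.8, 16.2 and 16.7 FPKM in activated WT, against 19.4, 21.6 and 18.7 in naive libraries (log2 fold change -0.34, limma adjusted p = 0.0114). Its paralogue Atg16l2 rose instead, with means of 36.6 ± 1.25 FPKM in activated WT and 28.3 ± 3.01 in naive cells (log2 fold change 0.36, limma adjusted p = 0.00606). It overlaps Fchsd2 on the opposite strand, which averaged 9.80 FPKM in activated WT and 17.4 in naive cells. Atg3, the enzyme that passes Atg8 proteins to lipid, fell to 20.3, 20.2 and 20.1 FPKM in activated WT, against 23.7, 27.8 and 24.6 in naive libraries (log2 fold change -0.31, limma adjusted p = 0.00671). Atg7, the activating enzyme, and Atg5 and Atg12, which form the conjugate, had log2 fold changes of 0.18, -0.15 and 0.16 and were not called, although their groups did not overlap. Sqstm1, which encodes the cargo receptor p62, was level at 87.2 ± 2.74 FPKM in activated WT and 88.1 ± 9.96 in naive cells (log2 fold change -0.01, limma adjusted p = 0.950). Over the 16 autophagy genes, 7 rose, 3 fell and 6 did not pass, against 26.2% called higher and 25.8% lower among all genes tested.

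Further genes of the pathway, on lists chosen with earlier results of these data known, were counted in the same way. Of 37 other lysosomal genes tested, 14 rose (37.8%) and 6 fell (16.2%), with a median log2 fold change of 0.28. Called in either direction were 54.1% of them, near the 52% of all genes tested (26.2% higher and 25.8% lower). Gnptab, which makes the mannose 6-phosphate tag that sends hydrolases to lysosomes, led the increases at 35.4 ± 2.74 FPKM in activated WT and 11.1 ± 0.834 in naive cells (log2 fold change 1.59, limma adjusted p = 8.79e-06). Smpd1, the acid sphingomyelinase gene, followed (log2 fold change 1.03). The largest decreases were those of Ids (-0.72), the sialidase gene Neu1 (-0.65) and the asparaginyl protease gene Lgmn (-0.60). Limma adjusted p was at most 0.00944 for these 5 genes. Of 16 genes of the V-ATPase, the proton pump that acidifies lysosomes, 4 rose (25%) and 1 fell (6.25%), against 26.2% and 25.8% of all genes (median 0.07). Atp6v1a (0.74), Atp6v0d1 (0.70) and Atp6v1d (0.38) rose most and Atp6ap1 fell (-0.31), with limma adjusted p of at most 0.0201. These counts were 7 and 4 with array quality weights and 2 and 3 with quantile normalization. They also moved with single libraries: 2 rose without naive replicate 1 or activated WT replicate 3, 3 fell without naive replicate 2 and 2 fell without naive replicate 3.

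Other autophagy genes numbered 33, of which 15 rose (45.5%) and 4 fell (12.1%), with a median log2 fold change of 0.15. In either direction 57.6% were called, against 52% of all genes tested (26.2% higher and 25.8% lower). Bnip3, a mitophagy receptor gene known to respond to hypoxia, had the largest increase but an uneven one, with 73.5, 58.7 and 14.2 FPKM in activated WT libraries against 4.44, 3.56 and 4.48 in naive ones (log2 fold change 2.99, limma adjusted p = 0.0057). Activated WT replicate 3 was far below the other two. Vmp1, which acts in autophagosome formation (1.58), and the receptor gene Calcoco1 (1.03) also rose, and Epg5 (-0.75), Atg2b (-0.50) and Atg4d (-0.40) fell, with limma adjusted p of at most 0.00535. Among 19 tested genes of mTORC1 and its regulation at the lysosomal surface, 6 rose (31.6%) and 8 fell (42.1%), with a median log2 fold change of -0.16. Together 73.7% of this list was called, against the same 52% of all genes. The Ragulator subunit genes split, since Lamtor5 (0.54) and Lamtor1 (0.42) rose while Lamtor2 fell to 39.1 ± 2.15 FPKM in activated WT, against 62.1 ± 9.94 in naive cells (-0.64). The GTPase gene Rragc rose (0.48), and Nprl2 (-0.60) and Tsc2 (-0.48), which encode parts of complexes that restrain mTORC1, fell (limma adjusted p of at most 0.00559 for these genes). Without activated WT replicate 2, 3 of the 19 rose instead of 6.

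**Figure D4:**
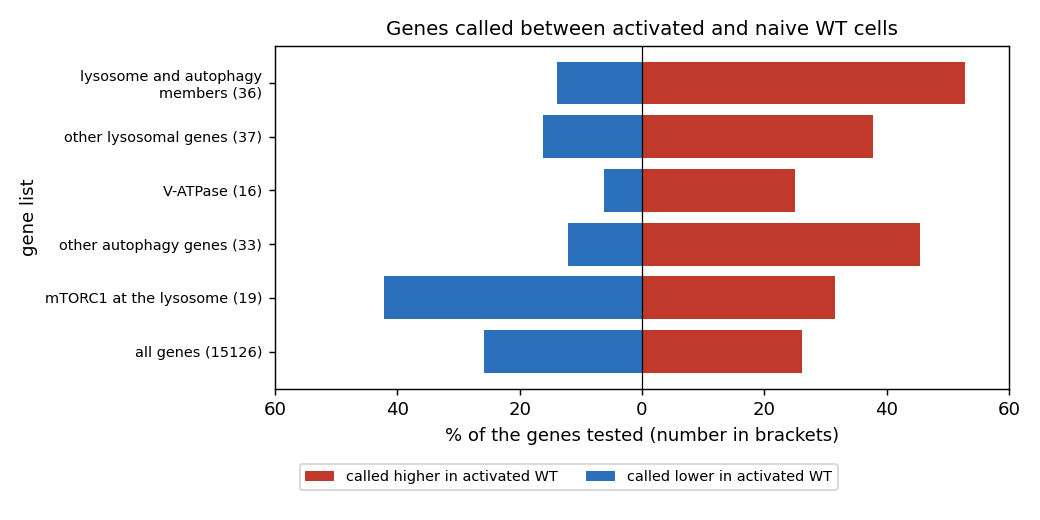
Share of the tested genes of each list (number in brackets) called higher (right) or lower (left) between activated and naive WT cells, with all 15126 tested genes in the lowest row. The 36 lysosome and autophagy genes have 52.8% higher and 13.9% lower, against 26.2% and 25.8% of all genes.

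Activated cells of the 2 genotypes were then compared, to ask which of the transcripts differed without BMPR1a. None of the 36 genes was called by limma, and 3 had an unadjusted p under 0.05. Among all genes tested 4.14% were called, 3.3% higher and 0.84% lower, and 25% had an unadjusted p under 0.05. The 626 genes behind the share called became 64 without activated WT replicate 2 and 1040 without knockout replicate 1. Median-of-ratios scaling called 306, of which 166 were higher, in place of 499 of 626. Array quality weights called 2 genes of the set higher and 3 lower, and 2815 of all 15126 genes higher and 1036 lower. The groups did not overlap for 6 of the 36 genes (16.7%), against 31.2% of all genes. The median log2 fold change was -0.05 for the set, with 14 differences above 0 and 22 below, and 0.06 for all genes. Without knockout replicate 2 the median of the set was 0.00. On the log2(FPKM + 1) scale, the 95% intervals of the differences ran from -0.74 (the lower bound for Ctsl) to 0.70 (the upper bound for Grn). For 30 of the 36 genes the interval lay between -0.5 and 0.5. This scale understates fold changes of low genes such as Wipi1, so these bounds do not limit the change in FPKM there. A p that misses the threshold does not show that the groups are alike. Both comparisons use the same activated WT libraries, so their fold changes are not independent of each other.

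Npc2 came nearest to a call. It was at 265, 245 and 216 FPKM in knockout, against 301, 323 and 368 in activated WT libraries, and 125, 119 and 128 in naive ones. All knockout libraries lay below all activated WT libraries and above all naive ones. The difference was -0.45 on the log2 scale (SE 0.0993, 95% interval -0.68 to -0.22, limma adjusted p = 0.0501, unadjusted p = 0.00209; exact permutation p = 0.1, the smallest that 3 against 3 libraries allow). It was called with array quality weights, with median-of-ratios scaling, with a stricter filter of 2 FPKM and without knockout replicate 1, and adjusted p ran from 0.00868 to 0.167 over the 17 alternatives. Npc1 stood at 13.4 ± 0.479 FPKM in knockout and 13.6 ± 0.823 in activated WT cells (SD, n = 3 each; log2 fold change -0.02).

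Atg7 and Atg16l1 were the other genes with an unadjusted p under 0.05. Atg7 was at 8.84, 8.04 and 9.51 FPKM in knockout and 7.36, 7.504 and 7.5003 in activated WT libraries (log2 fold change 0.21, limma adjusted p = 0.134). Atg16l1 was at 13.002, 13.4 and 13.5 FPKM in knockout and 13.8, 16.2 and 16.7 in activated WT libraries (log2 fold change -0.21, limma adjusted p = 0.180). Neither pair of groups overlapped, and in each case the gap was smaller than the SD of 1 of the groups. Grn also did not overlap, with 22.9, 24.4 and 29.4 FPKM in knockout and 21.5, 17.7 and 21.2 in activated WT libraries (log2 fold change 0.33, limma adjusted p = 0.252), and neither did Atg3 (log2 fold change 0.13) and Atg16l2 (-0.11).

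Gabarapl1 was at 18.9, 23.1 and 22.4 FPKM in knockout and 19.5, 19.2 and 19.3 in activated WT libraries (log2 fold change 0.14, 95% interval -0.05 to 0.33, limma adjusted p = 0.330). The knockout libraries spread more widely and surrounded the activated WT values. Gabarap (log2 fold change -0.09), Gabarapl2 (-0.19) and Map1lc3a (0.15) overlapped too, with intervals of -0.33 to 0.14, -0.43 to 0.05 and -0.18 to 0.49. Lamp2 was at 29.6, 26.0 and 29.2 FPKM in knockout and 27.1, 29.4 and 29.2 in activated WT libraries (log2 fold change -0.02, 95% interval -0.18 to 0.15). Tfeb had 10.7, 8.81 and 10.4 FPKM in knockout and 9.05, 8.81 and 8.92 in activated WT libraries (log2 fold change 0.14, limma adjusted p = 0.499). Tfe3 had 12.96, 10.98 and 13.03 FPKM in knockout and 10.7, 10.7 and 12.3 in activated WT libraries (log2 fold change 0.13). Mcoln1 had 27.4, 22.8 and 31.1 FPKM in knockout and 26.3, 31.4 and 31.8 in activated WT libraries (log2 fold change -0.14). All of these groups overlapped. None of the tested genes of the 4 further pathway lists was called by limma either. An unadjusted p under 0.05 was reached by 1 of 16 V-ATPase genes, 6 of 37 other lysosomal genes, 6 of 33 other autophagy genes and 4 of 19 mTORC1 genes, each a smaller share than the 25% of all genes. The groups did not overlap for 25%, 16.2%, 21.2% and 42.1% of these lists in the same order, against 31.2% of all genes. Of the 19 mTORC1 differences, 16 were above 0 and 3 below, with a median of 0.06, as for all genes. Array quality weights called 5 of the 19 higher, and 2815 of all 15126 genes.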

How the data were processed

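The authors deposited 1 table of FPKM values per gene and library, made with TopHat2, Cufflinks and Cuffdiff on GRCm38 per the submitters' processing notes. The tools' versions and strand setting were not given in the sources used. FPKM keeps no read depth, so the depth per library, and the precision it gives, is unknown.

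Values were taken as log2(FPKM + 1), and the 15126 genes whose mean over all 9 libraries reached 0.5 FPKM were tested. Limma 3.58.1 in R 4.3.3 was fitted to all 3 groups together, since they then share an estimate of the spread, with Benjamini-Hochberg adjustment over all tested genes and a threshold of 0.05. Fold changes are on this log2 scale and understate those of low genes. The procedure was tested on simulated data. Alternatives changed the pseudocount, filter, scaling, weights, libraries and blocking. Every library's value is given for the called genes without overlap and with a mean of at least 5 FPKM in the higher group (at most 10 in each direction), and for Tfeb, Tfe3, Mcoln1 and the Atg8 family. Of each further list, up to 3 such genes in each direction are named, except 1 that is not reported here. Library values of Lamp1, and of Npc2, Atg7, Atg16l1, Grn and Lamp2 between genotypes were added after their values were seen. The genes and lists were chosen with earlier results of these data known. Promoters came from RefSeq (GRCm38.p6), gene positions from GENCODE vM21, and near copies from blastn 2.17.0 (at least 95% identity over 300 bases).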

Additional observations from a re-analysis of the deposited data

How the results depend on the processing

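Between activated and naive WT cells, 21 of the 24 called genes kept their call under every one of the 17 alternatives that tested them. Wipi1 is among these and was tested under 16, since the filter at 2 FPKM left it out. Ctsd, Lamp1 and Npc1 lost their call under some alternatives, as given with their values. The number of genes of the list that rose was 17 to 21 and that of those that fell 5 to 8, with 8 under array quality weights, and the list's median log2 fold change was 0.20 to 0.31. The median of all genes tested was 0.01386 with median-of-ratios scaling and 0.003217 without naive replicate 3 (-0.01714 to 0.003217 with 1 library left out). Between knockout and activated WT cells, the number of all genes called depended far more on the setting than the counts above. It was 626 as tested, 416 with no filter, 306 with median-of-ratios scaling, 324 with quantile normalization, 3851 with array quality weights and 100 from the 6 libraries compared. With 1 library left out it ran from 64 (without activated WT replicate 2) to 1040 (without knockout replicate 1). It was 149 without naive replicate 1, 282 and 241 without activated WT replicates 1 and 3, and 93 and 67 without knockout replicates 2 and 3. Of the called genes 499 of 626 were higher, but 166 of 306 with median-of-ratios scaling and 183 of 324 with quantile normalization, where the median of all genes was 0 and -0.0005203. Of the list, 1 gene fell with the filter at 2 FPKM and with median-of-ratios scaling, and 0 to 1 with 1 library left out. Array quality weights called 2 higher and 3 lower. The list's median was 0.003914 without knockout replicate 2 (-0.1116 to 0.003914 with 1 library left out). The causes were not tested. Replicate numbers do not pair the libraries by the labels, and the correlations of same-numbered libraries' deviations were 0.003 to 0.054. The same number was the best match in 9 of 12 cases. Between activated and naive WT libraries the correlations were 0.0395 to 0.054 for the same number and at most 0.00331 for different ones. Between knockout and activated WT libraries they were 0.0027 to 0.0344 and at most 0.0217. Whether same-numbered libraries share a source was not tested. With the number as a replicate block, 58 genes were called between knockout and activated WT cells, and Ctsd lost its call between activated and naive WT cells (limma adjusted p = 0.0597).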
